A study of Mus musculus with 3 samples.

Results

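The glucocorticoid receptor, Nr3c1, and 5 of its target genes, Fkbp5, Tsc22d3, Sgk1, Ddit4 and Txnip, were followed in bone marrow (BM) cells of mice given LECT2. The genes were chosen by name: a gene was taken when its symbol in the deposited tables was one of these 6 names. Each name had 1 row, so 6 of 17250 gene names are described.

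LECT2 (leukocyte cell-derived chemotaxin 2) is a secreted protein of the liver. The study asked how recombinant LECT2 acts on haematopoietic stem cells and their BM niche, and the transcriptome was used to look for soluble factors that change in the BM. The 3 libraries came from C57BL/6 mice aged 6 to 8 weeks. The methods describe flushed BM cells, with no sort named, whereas a figure legend of the study calls them BM mononuclear cells, a preparation that would hold fewer neutrophils, and which was used is not known here. In all, 1 library was sequenced after 0 days, 1 after 3 days and 1 after 5 days of LECT2. In the 3-day and 5-day groups recombinant LECT2, made in a hamster cell line, was injected under the skin at 300 μg per kg once a day. The labels of the 0-day library name no injection, and the sources used here do not say whether those mice received vehicle. Without that knowledge, the effects of LECT2 and of repeated injection and handling cannot be told apart. The number of mice behind a library is not stated in the sources used here.

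The glucocorticoid receptor is a nuclear receptor that waits in the cytoplasm in a complex with HSP90 and its partner proteins. On binding corticosterone, the stress steroid of mice, it moves to the nucleus and raises or represses genes, partly through pairs of half-sites in DNA. In BM, glucocorticoids repress inflammatory cytokine genes, shorten the life of lymphocyte precursors and move neutrophils and lymphocytes between marrow and blood. Fkbp5, Tsc22d3, Sgk1 and Ddit4 are widely used as readouts of the receptor, but each also answers to other signals.

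The 250 bases upstream of the transcript start are shown for 4 genes, 1 window each, as examples of the palindromic receptor element (Sgk1), a single half-site (Tsc22d3), an E-box (Fkbp5) and a carbohydrate response element (Txnip). A single half-site was also found in 2 other windows of Sgk1, which are not shown. The sequences are from RefSeq (GRCm38.p6), 5′ to 3′ on the gene's strand. The motifs searched, on both strands, were the palindromic glucocorticoid response element (AGAACA, any 3 bases, then TGTTCT), its half-site TGTTCT or AGAACA, the E-box CACGTG and the carbohydrate response element (CACGNG, any 5 bases, then CACGNG). Capitals mark the palindrome and half-sites in Sgk1, the half-site in Tsc22d3, the E-box in Fkbp5 and the carbohydrate response element in Txnip. The Sgk1 window is chr10:21993640-21993889 on the plus strand, the Tsc22d3 window chrX:140600523-140600772 on the minus strand, the Fkbp5 window chr17:28486150-28486399 on the minus strand and the Txnip window chr3:96557707-96557956 on the plus strand.
Sgk1: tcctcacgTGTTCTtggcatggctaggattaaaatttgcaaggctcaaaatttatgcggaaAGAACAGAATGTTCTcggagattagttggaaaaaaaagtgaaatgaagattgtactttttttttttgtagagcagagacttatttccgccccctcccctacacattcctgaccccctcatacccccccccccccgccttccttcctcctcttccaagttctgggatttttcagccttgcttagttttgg
Tsc22d3: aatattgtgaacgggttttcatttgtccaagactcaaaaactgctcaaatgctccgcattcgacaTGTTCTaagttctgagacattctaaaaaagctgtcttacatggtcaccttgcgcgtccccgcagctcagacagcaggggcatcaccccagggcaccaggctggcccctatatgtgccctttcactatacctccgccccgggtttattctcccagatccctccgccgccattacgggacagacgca
Fkbp5: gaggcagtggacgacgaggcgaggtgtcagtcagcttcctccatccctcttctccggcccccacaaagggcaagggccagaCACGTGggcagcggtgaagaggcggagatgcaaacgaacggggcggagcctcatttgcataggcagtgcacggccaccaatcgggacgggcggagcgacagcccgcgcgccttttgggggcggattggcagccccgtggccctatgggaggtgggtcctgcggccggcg
Txnip: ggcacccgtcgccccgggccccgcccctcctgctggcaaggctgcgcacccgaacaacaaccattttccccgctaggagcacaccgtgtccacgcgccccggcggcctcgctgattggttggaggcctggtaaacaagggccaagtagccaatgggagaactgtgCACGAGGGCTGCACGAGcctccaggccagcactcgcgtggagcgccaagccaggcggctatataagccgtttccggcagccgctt

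Of the 6 genes, 5 had windows in the RefSeq table, 12 windows in all: 6 for Sgk1, 3 for Tsc22d3 and 1 each for Fkbp5, Ddit4 and Txnip. No window is given for Nr3c1. The full palindrome was found in 1 of the 6 Sgk1 windows, starting 189 bases before the transcript start, and in 3 of 32851 mouse windows (0.00913%). The half-sites inside that palindrome were also counted as half-sites, and an E-box, with capitals only in the bases it shares, overlaps the outermost half-site of the same window. A half-site was found in 4 of the 12 windows, 3 of Sgk1 and 1 of Tsc22d3, beside 16.1% of all windows. The E-box of Fkbp5, 169 bases before the start, is a motif held by 6.02% of windows. The carbohydrate response element of Txnip, which begins 85 bases before the start and is the type of site that the glucose sensor MondoA binds, was held by 15 windows (0.0457%). These are matches of letters in short windows, and many receptor sites lie further away.

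The libraries held between 15146983 and 15523952 reads on genes. The unit is the deposited RPKM, a gene's read count scaled to transcript length and to library size. Changes are log2 ratios after adding 0.1 RPKM to both values, so that changes of low genes are understated. With 1 library per time point no difference has a replicate check, and no test was run. For the same reason the 95% intervals (exact, Clopper-Pearson, on the ratio of 2 read counts) cover counting error only. PCR reads are not independent molecules, so the intervals may be too narrow even for that error. The median gene among 11144 that averaged 1 RPKM or more had a log2 ratio of 0.10 on day 3 and 0.31 on day 5 against day 0, and 0.25 on day 5 against day 3. Because of this shift, and because ratios rose with gene length, each ratio was also computed with edgeR's TMM scaling and with the trend on gene length removed. The 3 comparisons share libraries, so they are not independent of one another.

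Tsc22d3 and Fkbp5, both target genes of the receptor, differed most from the 0-day library with deposited RPKM, and in opposite directions. Tsc22d3 on day 5 was 2.95-fold lower than on day 0, and Fkbp5 was 2.01-fold higher. With TMM scaling the log2 ratio of Ddit4, −0.95, was further from 0 than that of Fkbp5, 0.69, on day 5, and with the length trend removed those of Ddit4 (−0.71), Sgk1 (−0.77) and Nr3c1 (−0.52) were further from 0 than that of Fkbp5, 0.48. Ddit4 had lower values at both later times, Sgk1 differed little on day 3 and was lower on day 5, and the signs for Nr3c1 and Txnip on day 5 depended on the scaling. Of the 6 genes, 0 passed 2-fold upwards and 0 downwards on day 3, where 4.08% of the 11325 genes with at least 1 RPKM in either library were higher and 2.41% lower. On day 5 against day 0, a total of 0 were at least 2-fold higher and 1, Tsc22d3, was at least 2-fold lower, where 15.5% of 11497 genes were higher and 5.91% lower. Between days 3 and 5 0 of the 6 passed 2-fold in either direction, where 1.95% of 11375 genes were higher and 3.45% lower. With a 1.5-fold limit, 1 was higher and 1 lower on day 3, where 16.4% and 10% of all genes were, 1 higher and 2 lower on day 5, where 34.5% and 12.3% were, and 0 higher and 1 lower between days 3 and 5, where 17.3% and 6.86% were. With so few genes these counts do not set the 6 apart from other genes.

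**Figure D1:**
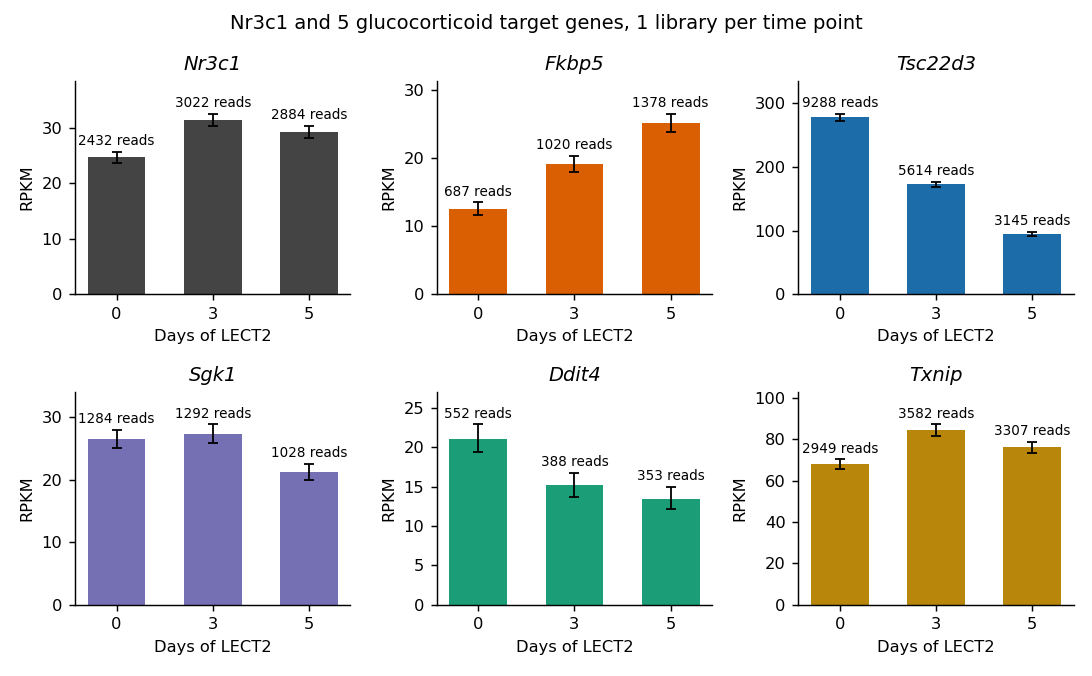
RPKM (vertical axes, from 0, with a scale of its own for each gene) of Nr3c1 and its 5 target genes in the libraries of 0, 3 and 5 days of LECT2. Each bar is 1 library, the lines are exact Poisson 95% intervals of the read count, for counting error only, and the read counts stand above the bars. Tsc22d3 goes from 278 to 94.3 RPKM and Fkbp5 from 12.6 to 25.2 RPKM, and the other 4 genes differ less on this scale.

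Nr3c1 (Entrez gene 14815, chromosome 18) encodes the receptor itself. It was counted with 2432 reads on day 0, 3022 on day 3 and 2884 on day 5, or 24.7, 31.4 and 29.3 RPKM. The 3-day library was the highest and the 0-day library the lowest. The log2 ratio was 0.35 on day 3 (95% interval 0.27 to 0.43) and 0.25 on day 5 (0.17 to 0.33). The direction is not fixed by these data: with the length trend removed the ratios were −0.13 and −0.52, and with TMM scaling 0.26 and −0.06. Nr3c1 is the longest of the 6, at 6345 bases. On day 5 its deposited ratio was at percentile 46.1 of all 11144 genes, near the median gene. In bulk BM, fewer cells that express a gene and less RNA of it per cell cannot be told apart, here and for each gene described.

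Fkbp5 (Entrez gene 14229, chromosome 17) encodes FKBP51, an HSP90 co-chaperone that lowers the receptor's affinity for its steroid, so that its induction by the receptor is a negative feedback. It was counted with 687, 1020 and 1378 reads on days 0, 3 and 5, or 12.6, 19.1 and 25.2 RPKM, with the lowest value on day 0 and the highest on day 5. The log2 ratio was 0.60 on day 3 (95% interval 0.46 to 0.75), 1.00 on day 5 (0.87 to 1.14) and 0.40 on day 5 against day 3 (0.28 to 0.52). Fkbp5 thus lay at the 2-fold limit: its plain RPKM ratio was 2.01 and its log2 ratio with the pseudocount was 0.9993, just under it. Fkbp5 was above 0 in each comparison under each of 7 alternatives, but the size depended on them, from 0.48 with the length trend removed to 1.00 on day 5, and it was 0.69 with TMM scaling. Its deposited 5-day ratio was at percentile 84.9 of all genes. With a pseudocount of 0.01 RPKM it passed 2-fold on day 5, as 16.2% of all genes did.

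Tsc22d3 (Entrez gene 14605, chromosome X) encodes GILZ, the glucocorticoid-induced leucine zipper, which binds NF-kB and AP-1 and dampens inflammatory transcription. It was counted with 9288 reads on day 0, 5614 on day 3 and 3145 on day 5. These are 278, 173 and 94.3 RPKM, so that the 5-day library held 33.9% of the 0-day level. The log2 ratio was −0.69 on day 3 (95% interval −0.74 to −0.64), −1.56 on day 5 (−1.62 to −1.50) and −0.87 on day 5 against day 3 (−0.93 to −0.81). It was below 0 under all 7 alternatives, between −1.87 and −1.55 on day 5. On day 5 against day 3 it was past the 2-fold limit with TMM scaling, at −1.09, where 4.84% of all genes were lower, with median-of-ratios scaling, where 4.79% were, and with the length trend removed, at −1.12, where 4.93% were. At percentile 2.27 of all genes on day 5, its deposited ratio was the lowest of the 6.

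Sgk1 (Entrez gene 20393, chromosome 10) encodes a serine/threonine kinase that is induced by glucocorticoids and by osmotic and serum signals. It was counted with 1284, 1292 and 1028 reads, or 26.5, 27.3 and 21.2 RPKM on days 0, 3 and 5. On day 3 the log2 ratio was 0.04 (95% interval −0.07 to 0.16), a difference not detectable at this depth, and its sign turned with TMM scaling, at −0.04. On day 5 it was −0.32 (−0.44 to −0.20), and between −0.77 and −0.31 under the alternatives. Sgk1, which had the palindromic receptor element in 1 of its 6 upstream windows, had its lowest value on day 5.

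Ddit4 (Entrez gene 74747, chromosome 10) encodes REDD1, an inhibitor of the growth kinase mTORC1 that is induced by glucocorticoids, by hypoxia and by the stress factor ATF4. It was counted with 552, 388 and 353 reads, or 21.1, 15.2 and 13.5 RPKM on days 0, 3 and 5. The log2 ratio was −0.47 on day 3 (95% interval −0.66 to −0.28) and −0.64 on day 5 (−0.84 to −0.45), and was below 0 under all 7 alternatives. Between days 3 and 5 it was −0.17, with an interval that held 0 (−0.38 to 0.04).

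Txnip (Entrez gene 56338, chromosome 3) encodes the thioredoxin-interacting protein, an alpha-arrestin that restrains glucose uptake and is driven by MondoA as well as by the receptor. It was counted with 2949, 3582 and 3307 reads, or 67.8, 84.4 and 76.1 RPKM on days 0, 3 and 5. Its log2 ratio on day 3 was 0.32 (95% interval 0.25 to 0.39) and above 0 under the alternatives. On day 5 it was 0.17 (0.09 to 0.24), but −0.14 with TMM scaling and −0.22 with the length trend removed, so no direction on day 5 is given.

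**Figure D2:**
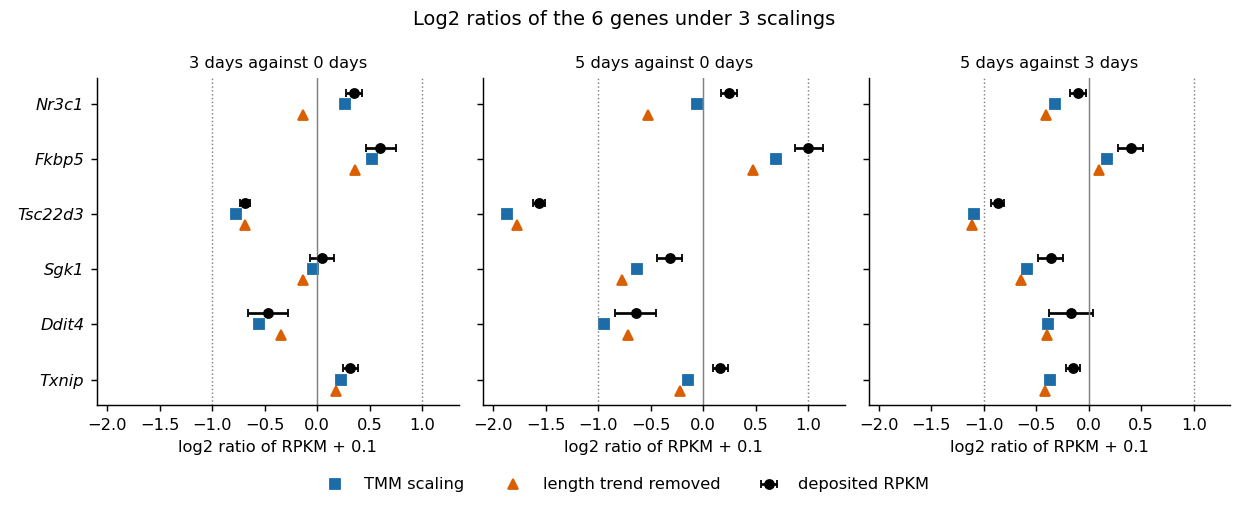
Log2 ratios of RPKM + 0.1 (horizontal axes) of the 6 genes for day 3 against day 0, day 5 against day 0 and day 5 against day 3. Circles are deposited RPKM with 95% counting intervals, squares TMM scaling and triangles values with the length trend removed, with dotted lines at 2-fold. Tsc22d3 and Ddit4 lie left of 0 and Fkbp5 right of 0 in each panel, whereas Nr3c1 on days 3 and 5, Sgk1 on day 3 and Txnip on day 5 fall on both sides of 0 against day 0.

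Within a library, RPKM can be compared between genes. Tsc22d3 and then Txnip had the highest levels of the 6 in each library. On day 0 Sgk1, Nr3c1, Ddit4 and Fkbp5 followed in that order, and on day 5 Nr3c1, Fkbp5, Sgk1 and Ddit4. Fkbp5 thus stood last on day 0 and ahead of Sgk1 and Ddit4 on day 5. The closest neighbours were Sgk1 and Nr3c1 on day 0, with a ratio of levels whose 95% interval ran from 1.002 to 1.149, and the spread between samples is not known for any neighbours. The RPKM of Tsc22d3 was 22.2 times that of Fkbp5 on day 0, 9.02 times on day 3 and 3.74 times on day 5. These ratios do not change with a factor applied to a whole library, such as TMM, but they do with removal of the length trend. With that trend removed, the day-5 log2 ratios were −1.78 for Tsc22d3 and 0.48 for Fkbp5, beside −1.56 and 1.00 with deposited RPKM. The level of Fkbp5 relative to that of Nr3c1 was 0.509, 0.608 and 0.861.

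The genes with the most similar pair of log2 ratios on days 3 and 5 were taken from the 6163 genes that averaged 10 RPKM or more, by Euclidean distance over the 3 libraries. For Fkbp5 these were Men1, Cux1 and Jak2, at distances of 0.00426 to 0.0153. For Tsc22d3 they were Snhg8, Rabgef1 and Smim3, at 0.0122 to 0.0831. For Nr3c1 they were Sirpa, Tpd52 and Exoc6, for Ddit4 Timmdc1, Psmd10 and Ldha, and for Txnip Lonp2, Ptplb and Usp15. With 3 libraries a pattern is 2 numbers, so such neighbours are weak evidence of likeness. How close the neighbours of other genes lie was not computed.

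The enzymes that set the active steroid were read beside the receptor. In this and the next lists, a gene is counted as measured when it had at least 1 RPKM in either library of the comparison. Hsd11b1, which regenerates corticosterone inside cells, had 75.8, 68.4 and 45.5 RPKM on days 0, 3 and 5. H6pd, which supplies the NADPH that Hsd11b1 uses, had 5.07, 10.7 and 14.9 RPKM. The deposited log2 ratio of H6pd on day 5 was 1.54 (95% interval 1.39 to 1.73), and with the length trend removed it was 0.90. Of the 4 genes measured in this list of 10, which includes Nr3c1, 2 were at least 2-fold higher on day 5 with deposited RPKM, H6pd and the steroid exporter Abcb1b, beside 15.5% of all genes. With TMM scaling 1 was higher, H6pd, and 1 lower, Hsd11b1, beside 7.24% and 9.96% of all genes, and with the length trend removed 0 passed 2-fold, beside 5.05% and 7.61%. The mineralocorticoid receptor Nr3c2, which binds the same steroid, had 0, 2 and 7 reads, and Hsd11b2, which inactivates it, had 4, 2 and 2.

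Of 15 chaperones of the receptor measured, 0 were at least 2-fold higher on day 5 and 1 (6.67%), Hspa1a with 54, 60 and 5 reads, was at least 2-fold lower, beside 15.5% and 5.91% of all genes. With TMM scaling 2 (13.3%) were lower, Hspa1a and Hsp90aa1, where 9.96% of all genes were, and with the length trend removed 3 of the 15, these and Dnaja1, where 7.61% were. Over the 14 chaperones that averaged 1 RPKM or more, which leaves out Hspa1a, the median log2 ratio was −0.16 on day 3 and 0.29 on day 5, beside 0.10 and 0.31 for all genes. Hsp90aa1, the inducible HSP90, had 474, 261 and 291 RPKM, while Hsp90ab1, the constitutive form, had 546, 463 and 622 RPKM, and its 5-day log2 ratio of 0.19 became −0.12 with TMM scaling. Hspa8, the constitutive HSC70, had 800, 758 and 1026 RPKM. Ppp5c, a phosphatase co-chaperone, had the largest positive ratio on day 5, 0.88 (0.74 to 1.02), followed by Stip1 at 0.65 and St13 at 0.61, and Dnaja1 was at −0.69. Fkbp4, which encodes FKBP52, the close relative of FKBP51 that promotes receptor activity, had 62.4, 50.6 and 85.3 RPKM. Its log2 ratio was −0.30 on day 3 and 0.45 on day 5, while that of Fkbp5 was positive at both.

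Of 19 receptor coregulators measured, 6 (31.6%) were at least 2-fold higher and 0 lower on day 5, beside 15.5% and 5.91% of all genes. These were the Mediator subunits Med1 and Med14, the acetyltransferase Ep300, the coactivator Ncoa2, the methyltransferase Carm1 and the corepressor Nrip1. Med1 had 6.48, 13.7 and 20.04 RPKM and Med14 5.41, 10.6 and 18.0 RPKM. With TMM scaling 5 (26.3%) were higher, where 7.24% of all genes were. With the length trend removed 2 (10.5%) were higher, where 5.05% were, Carm1 at 1.07 and Nrip1 at 1.98, and the median log2 ratio of the list moved from 0.69 to −0.01. The most abundant, Smarca4 and Arid1a of the SWI/SNF remodeller, had log2 ratios of 0.68 and 0.69 on day 5, which became −0.09 and −0.18 with the length trend removed.

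A further 55 genes that glucocorticoids are known to induce in 1 cell type or another were read as a list, of which 54 had a row and 51 were measured. On day 3, a count of 4 were at least 2-fold higher and 4 lower (7.84% each), beside 4.08% and 2.41% of all genes. With TMM scaling the day-3 counts were 2 higher and 5 lower, where 3.08% and 3.16% of all genes were, and with the length trend removed 0 and 2, where 2.59% and 1.81% were. On day 5, a count of 6 (11.8%) were higher and 19 (37.3%) were lower, beside 15.5% and 5.91% of all genes, and the median log2 ratio was −0.61 beside 0.31. With TMM scaling 3 were higher and 23 lower, where 7.24% and 9.96% of all genes were, and with the length trend removed 3 and 21, where 5.05% and 7.61% were. The 6 higher genes were the macrophage genes Cd163, Msr1 and Mertk, the interleukin-6 receptor Il6ra, the transporter Slc16a10 and the transcription factor Zbtb16. Il6ra had 11.8, 25.2 and 39.6 RPKM, and Cd163, a haemoglobin scavenger receptor, had 3.50, 5.39 and 7.83 RPKM.

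The largest negative ratios in this list belonged to Il1r2, Gadd45a, Fpr1, Nfkbia and Fpr2 by the rule used, which asks for a mean of at least 5 RPKM. Il1r2, the decoy receptor for interleukin-1, had 226, 109 and 14.0 RPKM, and its log2 ratio on day 5 was −4.00 (95% interval −4.18 to −3.84). Nfkbia, the NF-kB inhibitor, had 991, 401 and 172 RPKM. Dusp1, the phosphatase that ends p38 signalling, had 388, 430 and 164 RPKM, and Zfp36, which destabilises cytokine mRNA, had 1228, 1055 and 395 RPKM. The log2 ratios of Dusp1 and Zfp36 were 0.15 and −0.22 on day 3, and −1.24 and −1.64 on day 5. Per1, a clock gene that the receptor induces directly, had 44.1, 38.5 and 32.2 RPKM with a log2 ratio of −0.45 on day 5. Nfkbia, Dusp1, Zfp36 and Tnfaip3 are also induced by inflammatory signals, and Lcn2, at 10830, 8085 and 3136 RPKM, is a neutrophil granule gene, so the list is not specific to the receptor.

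Of the 22 genes that glucocorticoids repress, 17 were measured. On day 5, a count of 13 (76.5%) were at least 2-fold lower and 0 higher, beside 5.91% and 15.5% of all genes. On day 3 the counts were 5 (29.4%) and 0, beside 2.41% and 4.08% of all genes, and the lower count was 6 (35.3%) with TMM scaling, beside 3.16%, and 2 (11.8%) with the length trend removed, beside 1.81%. The list holds Tnf, Il6, Il1b, Ccl3, Ccl4 and Cxcl10, cytokine genes already known to be lower in these same libraries when the list was chosen, so its count is not independent evidence of a direction. The median log2 ratio was −1.88 on day 5. The count on day 5 was also 13 with TMM scaling, where 9.96% of all genes were lower, and with the length trend removed, where 7.61% were, in the latter with Mmp13 in place of Ccl2. Tnf was at 92.0, 60.5 and 6.61 RPKM, and the neutrophil chemokine Cxcl1 was counted with 176, 102 and 5 reads. On day 5 against day 0 Tsc22d3 and most of these cytokine genes were lower in the same library, while Fkbp5 was higher. A link between them was not tested. Vcam1, an adhesion molecule also used here as a macrophage marker, was the 1 gene of the 17 with a positive deposited ratio, 0.71 (0.62 to 0.81).

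**Figure D3:**
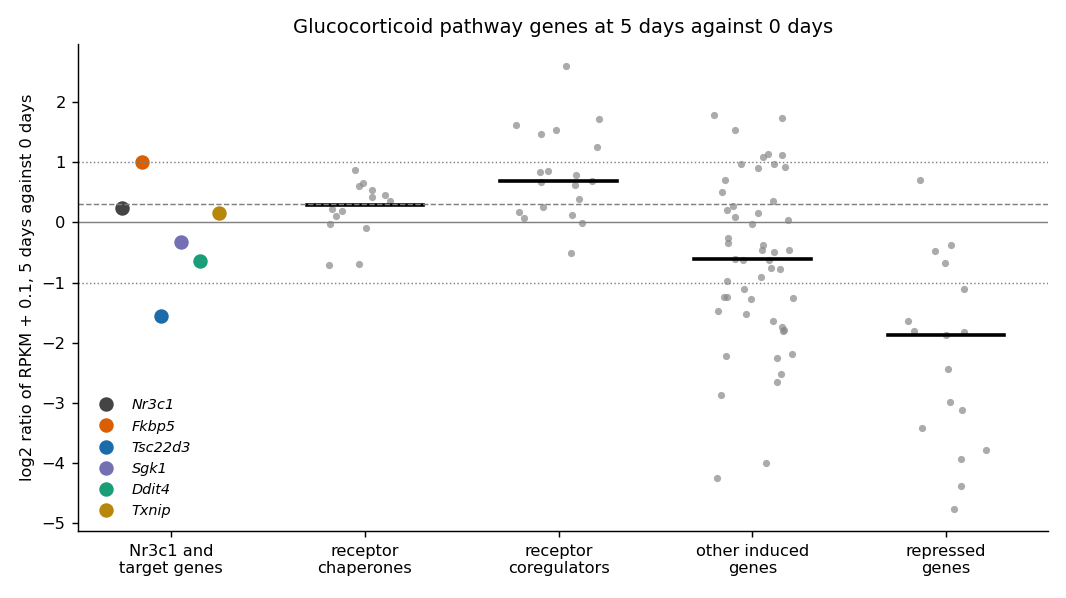
Log2 ratio of RPKM + 0.1 on day 5 against day 0 (vertical axis) for the 6 genes, coloured, and for 4 lists of glucocorticoid pathway genes that averaged 1 RPKM or more, grey, 1 point per gene. Black bars are list medians, the dashed line is the median of all genes (0.31) and dotted lines mark 2-fold. The 6 genes spread from −1.56 to 1.00, and the medians run from 0.69 for coregulators to −0.61 for other induced and −1.88 for repressed genes. With the length trend removed the coregulator median is −0.01.

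The relatives of the 6 genes were read beside them. Tsc22d1, a transforming growth factor-β-induced relative of Tsc22d3, had 29.9, 11.8 and 11.7 RPKM, so its log2 ratio was −1.34 at both times. Tsc22d4 had 49.0, 46.0 and 39.5 RPKM, with a log2 ratio of −0.31 on day 5, and Tsc22d2 had 3.16, 5.12 and 6.06 RPKM. Sgk3 had 16.0, 19.4 and 21.3 RPKM and a 5-day log2 ratio of 0.41, which became −0.30 with the length trend removed, and Sgk2 had 1, 0 and 0 reads. Ddit4l, the relative of Ddit4, had 5, 6 and 9 reads. Of the alpha-arrestins related to Txnip, Arrdc3 had 31.6, 30.2 and 14.6 RPKM, Arrdc1 had 61.3, 51.2 and 45.9, Arrdc4 had 2.53, 3.35 and 3.82, Arrdc2 had 3.57, 2.67 and 4.01, and Arrdc5 had 5, 1 and 1 reads. Of the 9 relatives measured, 2 were at least 2-fold lower on day 5, Tsc22d1 and Arrdc3, and 0 higher, beside 5.91% and 15.5% of all genes.

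Because Ddit4, Txnip, Sgk1 and Tsc22d3 answer to other signals, the genes of those signals were read too, on day 5 and with deposited RPKM, where 15.5% of all genes were at least 2-fold higher and 5.91% lower. Of 10 ATF4 stress genes measured, 0 were higher and 3 (30.0%) lower, and 4 were lower with TMM scaling, where 9.96% of all genes were. Atf4 had 448, 291 and 257 RPKM and Ddit3 58.0, 31.7 and 16.1 RPKM. Of 14 hypoxia genes, 0 were higher and 1 (7.14%) lower, Bhlhe40 with 50.9, 30.0 and 18.3 RPKM, and Vegfa had 15.9, 19.3 and 11.4 RPKM. With TMM scaling 2 (14.3%) of the hypoxia genes were lower, beside the same 9.96%.

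Of 14 genes in a list of FOXO factors and their targets, 1 (7.14%) was higher, Foxo3, which is itself a factor. In the same list 3 (21.4%) were lower, the lymphocyte homing genes Klf2 and Ccr7 and the death gene Bbc3. With TMM scaling 4 (28.6%) were lower, beside 9.96% of all genes, and with the length trend removed 5 (35.7%), beside 7.61%. Klf2 had 1147, 617 and 92.8 RPKM. Of 5 MondoA genes, 1 was higher, Mlxip itself at a log2 ratio of 1.03, which was 0.72 with TMM scaling and 0.21 with the length trend removed. Arrdc4, the gene most often read beside Txnip for MondoA, had a log2 ratio of 0.58 on day 5, which was 0.28 with TMM scaling and 0.01 with the length trend removed, and the day-5 sign of Txnip depended on the scaling. Of 14 clock genes, Clock was at least 2-fold higher and Gm129 at least 2-fold lower. With TMM scaling 0 clock genes were higher and 1 lower, beside 7.24% and 9.96% of all genes. With the length trend removed 0 were higher and 3 (21.4%) lower, Gm129, Nr1d2 and Per1, beside 5.05% and 7.61%.

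Marker genes of the BM cell types also differed between the libraries, and their part in these results was not tested. Counts are of day 5 against day 0 with deposited RPKM unless another is named. The 12 late neutrophil markers summed to 150100, 116100 and 41480 RPKM, and 11 of the 11 measured were at least 2-fold lower on day 5, beside 5.91% of all genes. The row of the 12th, Csf3r, is that of a noncoding transcript record and had 25, 57 and 20 reads, so it may not give the level of the receptor's mRNA. The 12 macrophage and monocyte markers summed to 1397, 1650 and 2036 RPKM. On day 5, 6 of 12 were at least 2-fold higher, beside 15.5% of all genes. With TMM scaling 4 were higher, beside 7.24%, and with the length trend removed 5, beside 5.05%. Ly6c2, at 931.5, 992.7 and 1138 RPKM, carries most of the sum. C1qa, C1qb and C1qc were at 87.2%, 96.6% and 95.7% of the 0-day level on day 5, and the other 9 were above it. The 6 promyelocyte markers summed to 2248, 2082 and 3631 RPKM, with 1 of 6 higher. The erythroid markers summed to 11510, 10150 and 4212 RPKM, with 3 of 10 lower. Those 3 are the globin genes Hba-a1, Hbb-b1 and Beta-s, which carry most of the sum, whereas Slc4a1 was at 159% and Epor at 118% of the 0-day level and the median log2 ratio of the list was −0.16. The B cell markers summed to 2420, 1915 and 1738 RPKM, with 0 of 9 past 2-fold, and 1 lower with TMM scaling, where 9.96% of all genes were. The T and NK cell markers summed to 342, 222 and 292 RPKM, with 1 of 11 lower, Cd3d, and 3 lower with TMM scaling, beside the same 9.96%. On day 3 against day 0, 3 of the 11 were lower, Cd3d, Cd3e and Gzma, beside 2.41% of all genes, and 4 with TMM scaling, beside 3.16%. With the length trend removed 1 of them was lower, Cd3d, beside 1.81%. The megakaryocyte markers summed to 48.7, 31.9 and 43.6 RPKM, with 0 of 6 past 2-fold, and 1 lower with TMM scaling, Pf4, beside 9.96%. With the length trend removed another 1 was lower, Itgb3 at −1.03, beside 7.61%. On day 3 Pf4 and Ppbp were at least 2-fold lower than on day 0, where 2.41% of all genes were, and on day 5 both were at least 2-fold higher than on day 3, where 1.95% of all genes were. With the length trend removed Pf4 but not Ppbp, at −0.83, was at least 2-fold lower on day 3, where 1.81% of all genes were. The osteolineage and stromal markers summed to 88.8, 79.2 and 32.2 RPKM, with 7 of 8 lower. Of defining markers of the labelled tissue, S100a8 of neutrophils had 28720, 23980 and 7789 RPKM, Cd79a of B cells 827.5, 613.6 and 532.3 RPKM and Mpo of promyelocytes 434.6, 581.4 and 1237 RPKM, whereas Bglap of osteoblasts had 43, 30 and 2 reads. Of the gene lists above, Lcn2 and Mmp9 are also late neutrophil markers, Mertk and Vcam1 macrophage markers and Il7r a T cell marker.

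**Figure D4:**
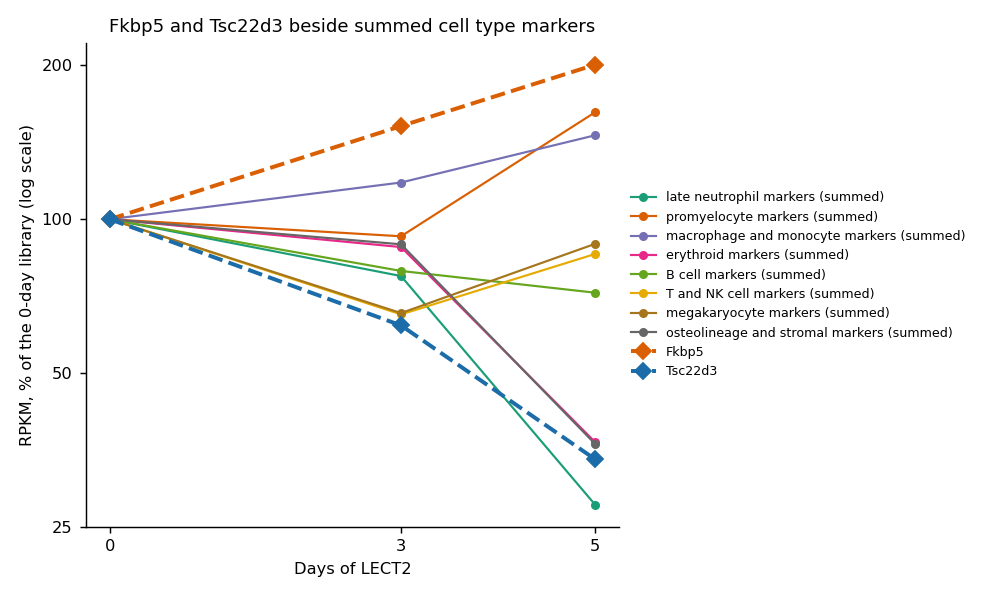
RPKM as a percentage of the 0-day library (vertical axis, log scale) against days of LECT2 for Fkbp5 and Tsc22d3 (dashed) and for the summed markers of 8 BM cell types (solid), 1 library per time point. On day 5 Tsc22d3 is at 33.9%, beside 27.6% for late neutrophil, 36.3% for osteolineage and stromal, 36.6% for erythroid (a sum carried by globin genes) and 71.8% for B cell markers. On day 3 it is at 61.95%, beside 77.4%, 89.3%, 88.2% and 79.2% for the same lists in that order. The sums nearest to it on day 3 are those of T and NK cell (65.1%) and megakaryocyte (65.5%) markers. Fkbp5 lies above 100, as the summed promyelocyte (162%) and macrophage and monocyte (146%) markers do on day 5. The latter sum is carried mostly by Ly6c2.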

How the data were processed

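BM cells of 3 groups of mice were analysed, with 1 RNA-sequencing library per group. Per the methods, libraries were made with a TruSeq RNA kit, sequenced on an Illumina HiSeq instrument and quantitated with Cufflinks. The submitters' processing notes name the build mm8, and the aligner is not given in the sources used here. The authors deposited whole read counts per gene and the RPKM computed from them, in tables of 2 libraries each. Dividing each deposited count by gene length and by the library's reads on genes gave the deposited RPKM to within 0.1%, apart from 18 rows at 0 days and 14 at 3 days, none of them among the 6 genes. Rows without reads, listed by the authors at 0.01 RPKM, were set to 0. The log2 ratio, P value and false discovery rate columns of the authors were not used. Among the 17559 rows, 232 symbols had several, of which the most abundant by mean RPKM was taken.

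A gene entered the counts when 1 of the 2 libraries compared held at least 1 RPKM, and was called at a ratio of 2-fold or more after adding 0.1 RPKM. The alternatives were pseudocounts of 1 and 0.01, TMM factors (edgeR 4.0.16), median-of-ratios factors (DESeq2 1.42.0), scaling without the 100 most abundant genes, removal of the trend on gene length (lowess, span 0.3, statsmodels 0.14.6), the sum of all rows of a symbol, a minimum of 5 RPKM or none, and a 1.5-fold limit. From each list the text names up to 5 genes with the largest absolute log2 ratio at 5 days among those with a mean of at least 5 RPKM, and the 2 with the highest mean. It also names all relatives, and a few other genes chosen after their values were seen. The 6 genes and the lists were chosen with earlier results of these data known. The genes most like Sgk1 are not reported here. The steps were tested on simulated counts. Upstream windows came from a RefSeq table (GRCm38.p6) that is of another build than the files, and chromosomes from RefSeq by gene ID. Python 3.11.15, pandas 2.3.3, numpy 2.4.6, scipy 1.17.1, matplotlib 3.10.9 and R 4.3.3 were used.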

Additional observations from a re-analysis of the deposited data

How the results depend on the processing

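No paired analysis was possible because each group holds 1 library and the groups share fewer than 2 replicate numbers. For the same reason no library was left out. The depth, at 15146983 to 15523952 reads on genes, limits the counting error only, and the spread between mice is unknown.

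Of the counts of the 6 genes past the limit, those that moved did so as follows. With a 1.5-fold limit, 1 gene was higher and 1 lower at 3 days, 1 higher and 2 lower at 5 days, and 1 lower between days 3 and 5, where 16.4%, 10%, 34.5%, 12.3% and 6.86% of all genes were, in that order. With a pseudocount of 0.01, 1 gene, Fkbp5, was at least 2-fold higher at 5 days. With TMM scaling, median-of-ratios scaling and the length trend removed, 1 gene, Tsc22d3, was at least 2-fold lower at 5 days against 3 days. A count for the other lists was taken as moved when it changed by over 1.5 times, or to or from 0. Of the 114 such counts, 17 moved with TMM scaling, 24 with the length trend removed and 53 with the 1.5-fold limit.

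Against the 0-day library, the log2 ratio changed sign for Nr3c1 at 3 days with the length trend removed (−0.13). At 5 days it did so for Nr3c1 with TMM scaling (−0.06), median-of-ratios scaling (−0.05) and the length trend removed (−0.52). It also changed sign for Sgk1 at 3 days and for Txnip at 5 days under these 3 settings and without the 100 most abundant genes, where it was −0.05 and −0.04.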
